A study of Danio rerio with 6 samples.

Results

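Calcium-binding and calcium-dependent proteins were followed by gene family in sorted retinal cells of adult zebrafish. The members were the probe sets whose single gene symbol in the platform annotation begins with *anxa*, *s100*, *calm*, *pvalb*, *calb*, *guca* (without *guca1c*), *rcvrn* (without *rcvrn3*), *ncs1*, *hpca*, *vsnl*, *ncald*, *cabp*, *camk*, *ppp3*, *capn*, *efhd* or *caln*. This gave 77 of 15502 tested probe sets and 61 of 8793 named genes. No probe set was named for a *vsnl* or a *caln* gene, and 5 further probe sets that the annotation assigns to 7 genes each, 6 of them calmodulin genes, were left unnamed and are given apart.

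Calcium ions act inside cells by binding proteins that change shape and then switch partners on or off. In photoreceptors calcium falls in light, and the neuronal calcium sensors recoverin and the guanylate cyclase-activating proteins read this fall and adjust the light response, while calmodulin passes calcium signals to kinases and to the phosphatase calcineurin. Annexins bind membrane phospholipids when calcium is present, S100 proteins are small EF-hand proteins that dock on target proteins, calpains are calcium-dependent proteases, and parvalbumins and calbindins buffer the ion.

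The cells came from adult fish with the transgene Tg(3.2TalphaCP:EGFP), which all samples carried and whose cone transducin α promoter makes EGFP in cone photoreceptors. Pooled retinae, freed of pigment epithelium and lens and not treated otherwise, were dissociated with trypsin and sorted by EGFP fluorescence. The 3 GFP-positive and the 3 GFP-minus samples, called biological replicates by their labels, were measured on 6 Affymetrix GeneChip Zebrafish arrays. The labels give cone cells as the tissue of both groups, although the GFP-minus cells are those sorted without the EGFP signal. The sources used here do not say whether samples of the same number share fish. If samples do not come from separate fish, the p-values measure only the spread between these samples. In sorted populations measured in bulk, fewer cells of a type and less RNA per cell cannot be told apart.

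The values are log2 expression per probe set, as deposited after GCRMA, and differences are GFP-positive minus GFP-minus. The shared lowest value was 2.17, held by 10.3% to 11.7% of the probe sets of each array. A level near it cannot be told from background, and the size of a difference against such a level depends on the background step. Cone markers checked the sort: all 11 measured cone genes were higher in GFP-positive cells, and their summed level (log2 of the sum of linear values) was 16.11 to 16.53 there and 8.27 to 11.46 in GFP-minus cells, highest in GFP-minus replicate 3. None of 3 measured rod genes was called, with a summed level of 15.61 to 16.01 in GFP-positive and 14.27 to 15.30 in GFP-minus cells. Leukocyte genes were lower in 10 of 12 cases, with a summed level of 11.40 to 12.55 against 15.45 to 15.87, erythrocyte genes in 7 of 8, with 12.58 to 13.10 against 15.53 to 15.92, and epithelial genes in 6 of 11, with 10.47 to 10.98 against 13.30 to 13.64. The 11 Müller glia genes split into 4 higher, 1 lower and 6 uncalled, with a summed level of 14.50 to 15.05 against 14.16 to 14.78. The uncalled gene *cahz* is in both the erythrocyte and the Müller glia list, at 11.56 to 12.25 against 11.36 to 12.85. It therefore makes up a large part of the erythrocyte sum in GFP-positive cells. Of 13 amacrine and horizontal cell genes 3 were lower (12.85 to 12.94 against 13.37 to 13.51), and of 5 ganglion cell genes 2 were lower (6.87 to 7.29 against 8.69 to 9.05). No gene of 2 bipolar and 5 vessel genes was called (11.36 to 11.71 against 11.24 to 12.32, and 5.82 to 5.89 against 6.26 to 8.12). At an unadjusted p under 0.05 (10.7% of all probe sets higher and 10.4% lower), 3 rod genes were higher and no bipolar or vessel gene passed. Among the bipolar genes, *cabp5b* is itself a member. Of all these marker genes, *th* alone lay at the lowest value on all 6 arrays.

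In GFP-positive cells, 4 of the 77 member probe sets were higher and 9 were lower than in GFP-minus cells (limma, adjusted p under 0.05), while 2.99% of all tested probe sets were higher and 4.69% were lower. The members called made up 16.9% against a background of 7.68%. Among probe sets above 3.5 on at least 1 array, these shares were 22.8% and 11.6%. The higher ones belong to recoverin (*rcvrn2*), a pair of calmodulin-dependent kinase genes (*camk2d1* and *camk1ga*) and the regulatory subunit of calcineurin (*ppp3r1b*). The lower ones are annexins (*anxa1a*, *anxa1b*, *anxa2a*, *anxa3b*, *anxa4* and, with 2 probe sets, *anxa5b*) and S100 genes (*s100w* and *s100u*). No guanylate cyclase activator, calmodulin, calpain, parvalbumin, calbindin, CaBP or EFHD probe set passed the test as deposited. Before adjustment (p under 0.05), 9 members were higher and 17 were lower, against 10.7% and 10.4% of all probe sets.

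All GFP-positive arrays lay above all GFP-minus arrays for 14 members (18.2%, against 13.9% of all probe sets) and below them for 22 (28.6%, against 13.0%), and the remaining 41 overlapped. The median difference over the members was -0.04, beside 0.01 over all tested probe sets. A single probe set with 3 arrays against 3 could not reach an exact permutation p below 0.1, so limma was used. Its prior across all probe sets had 0.519 degrees of freedom, so the tests rest mostly on the spread of each probe set. The level stayed under 3.5 on every array for 20 members, none of which was called, and 5 of these, 1 each of *anxa5b*, *hpcal1*, *pvalb2*, *pvalb3* and *pvalb4*, lay at the lowest value on all 6 arrays.

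**Figure D1:**
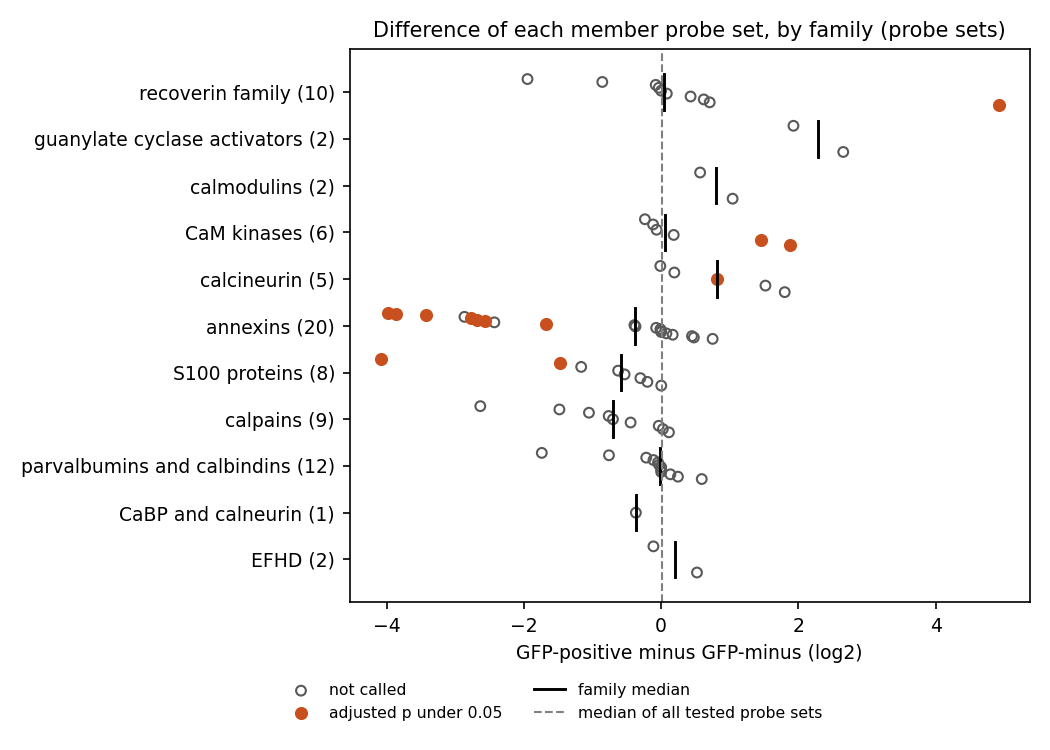
Difference between GFP-positive and GFP-minus arrays on the log2 scale (x axis) for each of the 77 member probe sets, by family (y axis, with the number of probe sets), where filled points passed the test, short lines are family medians and the dashed line is the median of all tested probe sets at 0.01. The called annexins and S100 genes lie between -4.09 and -1.47, and the called members of the recoverin, kinase and calcineurin families between 0.81 and 4.92.

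The number of calls depended on the scale of the arrays and on single arrays. Each array centred on its median raised every difference by 0.23 and gave 26 higher and 14 lower members (39.7% and 7.11% of all probe sets), whereas arrays set to equal hybridization controls moved every difference by -0.74 and gave 3 higher and 27 lower members (1.26% and 21.0% of all probe sets). Centring also shifts probe sets at background that have almost no spread, so its higher calls can include members without signal. Without GFP-minus replicate 1, 2 or 3, the higher members numbered 2, 1 or 3 (1.66%, 0.813% and 1.65% of all probe sets) and the lower ones 15, 4 or 4 (4.77%, 2.17% and 2.57%). Without GFP-positive replicate 1, 2 or 3, they numbered 2, 2 or 0 (2.08%, 0.922% and 0.664%) and 5, 5 or 4 (2.88%, 1.55% and 1.38%). These counts can include members not called as deposited. Without GFP-positive replicate 2, 1 recoverin family probe set was higher, but not the *rcvrn2* one called as deposited (limma adjusted p = 0.0621). The direction of all 13 called members was kept in every alternative in which they were tested. This was largely fixed in advance. The groups of these members do not overlap, so leaving out 1 array cannot turn a sign, and fits such as the block leave the differences unchanged. Both scalings moved every difference by less than the smallest called one, 0.81.

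Recoverin binds opsin kinases in photoreceptors and holds them back while calcium is high. The *rcvrn2* transcript lay at 12.86, 12.65 and 13.43 on the GFP-positive arrays against 8.45, 7.09 and 8.63 on the GFP-minus arrays, in the order of replicates 1, 2 and 3, which is kept throughout. Every GFP-positive array was above every GFP-minus array, and the lowest GFP-minus value was that of replicate 2. Levels averaged 12.98 ± 0.41 against 8.06 ± 0.84 (SD, n = 3 arrays each), a 30.3-fold difference (4.92 on the log2 scale, standard error 0.51, limma adjusted p = 0.0139), the largest among the members. The call was lost when GFP-positive replicate 1, 2 or 3 was left out (limma, adjusted p = 0.0515, 0.0621 and 0.0670), where the difference was 4.98, 5.09 and 4.69, and over all alternatives the adjusted p ran from 7.2e-05 to 0.067. The other *rcvrn2* probe set stayed between 2.22 and 2.35 on all arrays, near background.

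The other neuronal calcium sensors of this family did not pass the test. The gene *ncs1a*, whose product is a sensor of neurons and their synapses, had 2 probe sets with differences of 0.71 and 0.62 (limma adjusted p = 0.328 and 0.280). Both lay above without overlap between the groups, as did 13.9% of all probe sets. Hippocalcin, a neuronal calcium sensor encoded by *hpca*, lay at 11.40, 11.28 and 10.63 on the GFP-positive arrays against 10.98, 10.29 and 10.74 on the GFP-minus arrays, with overlapping groups. Neurocalcin δ, encoded by *ncalda*, pointed the other way in its most variable probe set, with 3.63, 3.56 and 3.73 on the GFP-positive arrays against 4.54, 6.38 and 5.84 on the GFP-minus arrays. This difference of -1.95 did not pass the test (limma adjusted p = 0.118), although the groups did not overlap. The GFP-positive levels were close to one another and low, so the size of the difference depends on the background step. The 2 other *ncalda* probe sets had differences of -0.86 and -0.04, and *ncs1b* and *hpcal1* stayed under 3 on every array.

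The guanylate cyclase-activating proteins stimulate the cyclase of photoreceptor outer segments when calcium falls. The *guca1aa* transcript, for the first of these activators, lay at 9.33, 10.16 and 9.52 on the GFP-positive arrays against 6.97, 6.23 and 7.86 on the GFP-minus arrays. The groups were apart on all arrays, with a 6.29-fold difference that narrowly missed the threshold (log2 difference 2.65, 95% confidence interval 1.32 to 3.98, limma adjusted p = 0.0535). For *guca1b*, the second activator, values were 12.04, 13.18 and 12.90 on the GFP-positive arrays against 10.00, 10.57 and 11.77 on the GFP-minus arrays, a difference of 1.93 (95% confidence interval 0.37 to 3.48, limma adjusted p = 0.157). In both genes GFP-minus replicate 3 was the highest GFP-minus array. This sample also had the highest summed level of cone genes and of rod genes in its group. The part of the cone and rod genes given above in the recoverin and activator differences was not tested. Without that array the difference of *guca1aa* was 3.07, the highest of all arrays left out, and it was not called (limma adjusted p = 0.0530). It was called higher in 5 other alternatives, with quantile normalization, median centring, equal hybridization controls, 1 probe set per gene or dim probe sets removed. Over all alternatives its limma adjusted p ran from 0.00526 to 0.164. With dim probe sets removed or with median centring, *guca1b* was called higher too (10.0% and 39.7% of all probe sets tested there).

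Calmodulin is the general calcium sensor of cells. Its gene *calm3a* lay at 9.10, 9.78 and 9.95 on the GFP-positive arrays against 8.04, 8.70 and 8.98 on the GFP-minus arrays, apart on all arrays but not called (log2 difference 1.04, limma adjusted p = 0.202). The *calm3b* values were 10.53, 11.89 and 11.80 on the GFP-positive arrays against 9.97, 11.28 and 11.27 on the GFP-minus arrays. These overlapped, since replicate 1 was the lowest array of both groups, and the difference was 0.57 with a 95% confidence interval of -0.98 to 2.11. A block for the replicate number called both calmodulin probe sets higher (1.25% of all probe sets), *calm3b* with limma adjusted p = 0.0359. The labels do not say that the numbers pair the samples. Under equal hybridization controls the direction of *calm3b* turned to -0.17, which was still above the median of all probe sets at -0.73. Among the 5 probe sets shared by several genes, 1 was higher as deposited, where 2.99% of all probe sets were. It lay at 8.08, 8.36 and 8.69 on the GFP-positive arrays against 6.43, 6.17 and 6.76 on the GFP-minus arrays (log2 difference 1.92, limma adjusted p = 0.0188). The 4 others had differences between -0.64 and 0.24, and none was called.

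Kinases that calmodulin activates carry the signal on to other proteins. The δ isoform of CaM kinase II, a kinase that can hold its activity after the calcium signal has passed, was covered by *camk2d1* with 4.81, 4.15 and 4.39 on the GFP-positive arrays against 2.53, 2.53 and 2.64 on the GFP-minus arrays. All GFP-minus arrays were near background, so that the 3.68-fold difference depends on the background step (1.88 on the log2 scale, standard error 0.19, limma adjusted p = 0.0128). The paralog *camk2d2* had 2 probe sets whose differences were -0.24 and -0.07, with overlapping groups. CaM kinase I γ, encoded by *camk1ga*, lay at 11.61, 11.93 and 11.75 on the GFP-positive arrays against 10.15, 10.03 and 10.76 on the GFP-minus arrays. Its arrays were tightly grouped in GFP-positive cells and GFP-minus replicate 3 was the nearest to them, for a 2.73-fold difference (1.45 on the log2 scale, standard error 0.23, limma adjusted p = 0.0368). The *camkvl* gene, which codes for a kinase-like vesicle protein, had differences of 0.18 and -0.12 in its 2 probe sets and was not called.

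The call of *camk2d1* was lost without GFP-minus replicate 2 (limma adjusted p = 0.0604) or GFP-positive replicate 3 (0.0650), and over all alternatives its adjusted p ran from 0.00411 to 0.0683. The call of *camk1ga* held without GFP-minus replicate 3 and in none of the other 5 cases (limma adjusted p = 0.0892 to 0.132), and it was lost with equal hybridization controls, where its difference was 0.71 (limma adjusted p = 0.118, over all alternatives 0.00713 to 0.132). With a block for the replicate number the calls of *camk2d1* and *camk1ga* were both lost (limma adjusted p = 0.0683 and 0.110).

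Calcineurin is the phosphatase that calcium and calmodulin switch on, built from a catalytic and a regulatory subunit. The regulatory subunit gene *ppp3r1b* lay at 10.45, 10.61 and 10.74 on the GFP-positive arrays against 9.77, 9.88 and 9.72 on the GFP-minus arrays. The difference was small, 1.75-fold, but the arrays of each group were close together (0.81 on the log2 scale, standard error 0.09, limma adjusted p = 0.0152). It was called without GFP-positive replicate 1 and lost without any other array (limma adjusted p = 0.0505 to 0.0747). The call was also lost with a block for the replicate number (limma adjusted p = 0.0775). With equal hybridization controls its difference was 0.07 (limma adjusted p = 0.836, over all alternatives 0.004 to 0.836). A further *ppp3r1b* probe set stayed between 2.43 and 2.83.

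The catalytic subunit gene *ppp3cca* had 2 probe sets with differences of 1.80 and 1.52, and neither passed the test (limma adjusted p = 0.0669 and 0.0788). The first lay at 8.71, 8.82 and 9.55 on the GFP-positive arrays against 6.88, 6.99 and 7.81 on the GFP-minus arrays, and the second at 5.49, 6.12 and 6.17 on the GFP-positive arrays against 4.03, 4.23 and 4.96 on the GFP-minus arrays. In both, every GFP-positive array exceeded every GFP-minus array (13.9% of all probe sets), and replicate 3 was the highest of each group. With dim probe sets removed, 3 calcineurin probe sets were called higher, among them both of *ppp3cca* (10.0% of all probe sets tested there). The remaining catalytic gene, *ppp3cb*, was between 2.47 and 2.64 everywhere. Over the 5 calcineurin probe sets the median difference was 0.81.

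**Figure D2:**
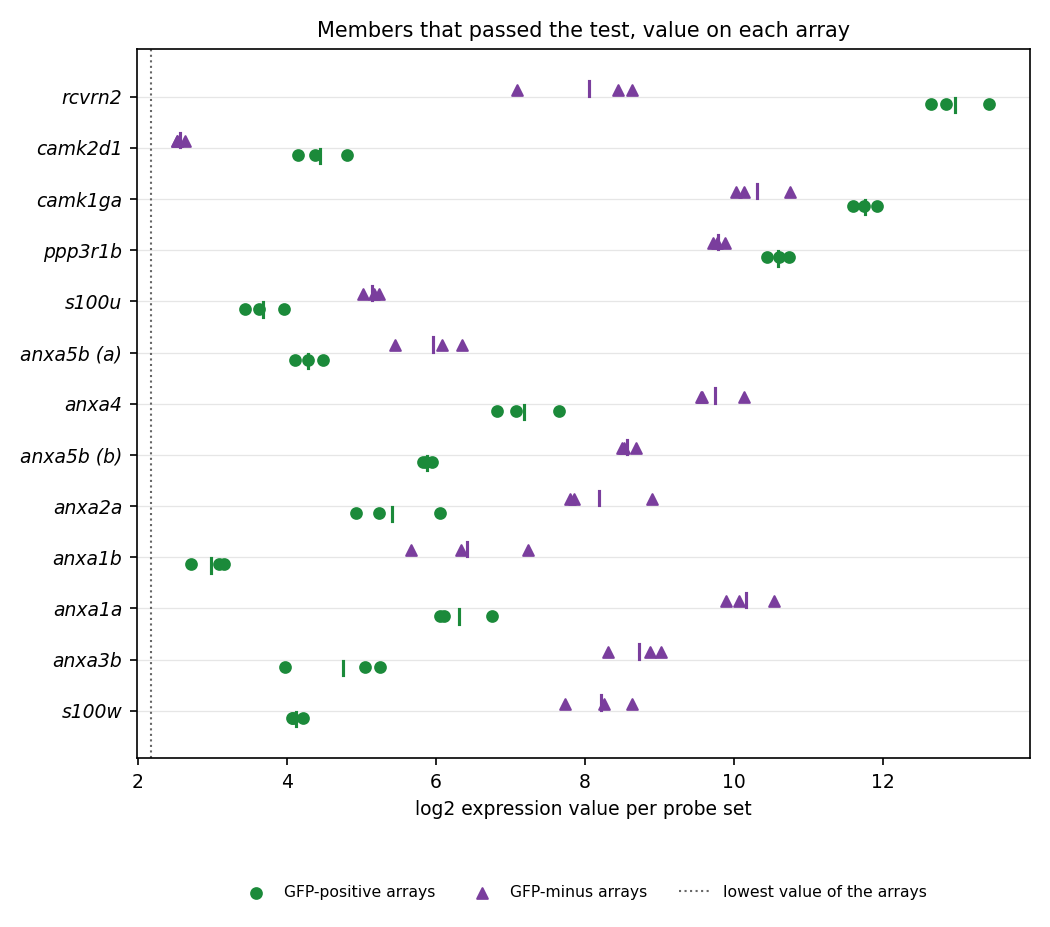
Log2 expression values (x axis) of the 13 called probe sets (y axis) on each of the 3 GFP-positive arrays (circles) and 3 GFP-minus arrays (triangles), with short lines at the group means and the lowest value of the arrays, 2.17, dotted. The groups are apart for every probe set, which the choice of called ones largely fixed in advance. The levels of *anxa1b* in GFP-positive cells (2.71 to 3.15) and *camk2d1* in GFP-minus cells (2.53 to 2.64) lie near the lowest value. The *anxa5b* probe set marked (b) is the one with the smallest adjusted p.

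Annexins were the family with the most calls. Of 20 probe sets for 14 genes, 7 were lower in GFP-positive cells (35.0%, against 4.69% of all tested probe sets) and none was higher as deposited (limma). By the unadjusted p under 0.05, 9 were lower and 0 higher (10.4% and 10.7% of all probe sets). With median centring 9 were lower and 5 were higher (7.11% and 39.7% of all probe sets). That shift can also call the 5 annexin probe sets under 3.5 on every array. Equal hybridization controls gave 11 lower (21.0% of all probe sets). Annexin A1, known in mammals for damping inflammation and abundant in leukocytes and epithelia, is represented by 4 genes. The *anxa1a* transcript lay at 6.75, 6.11 and 6.06 on the GFP-positive arrays against 10.54, 10.07 and 9.89 on the GFP-minus arrays. This 14.5-fold lower level (-3.86 on the log2 scale, standard error 0.28, limma adjusted p = 0.00650) was called with any 1 of the 6 arrays left out, with differences of -4.08 to -3.67. The *anxa1b* transcript was near background in GFP-positive cells, with 3.1, 3.15 and 2.71 on the GFP-positive arrays against 7.24, 5.67 and 6.34 on the GFP-minus arrays, so the size of its difference depends on the background step (-3.43 on the log2 scale, standard error 0.45, limma adjusted p = 0.0227). The *anxa1c* values were 4.93, 4.44 and 4.68 on the GFP-positive arrays against 8.68, 7.33 and 6.64 on the GFP-minus arrays, a difference of -2.87 that was not called as deposited (limma adjusted p = 0.0626) and was called without GFP-minus replicate 1 (-2.30, limma adjusted p = 0.0416, over all alternatives 4.9e-05 to 0.196). In all 3 genes GFP-minus replicate 1 was the highest array. The fourth gene, *anxa1d*, stayed between 2.17 and 2.39 in its 2 probe sets. In the zebrafish reference assembly, *anxa1b* and *anxa1c* are neighbouring genes, as are *anxa1c* and *anxa1d*, so that neighbouring genes ranged from a called difference to levels at background.

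Annexin A2 links membranes to actin and in mammals pairs with S100A10. The *anxa2a* values were 6.06, 5.24 and 4.94 on the GFP-positive arrays against 8.90, 7.86 and 7.80 on the GFP-minus arrays. Groups did not overlap, and the 6.86-fold lower level was called from all arrays (-2.78 on the log2 scale, standard error 0.46, limma adjusted p = 0.0393) but not once any single array was left out (limma adjusted p = 0.0595 to 0.142). The *anxa2b* probe set lay at 2.22 on all arrays. The S100A10 gene *s100a10b* was at 7.68, 7.29 and 7.68 on the GFP-positive arrays against 8.10, 8.43 and 7.99 on the GFP-minus arrays, a difference of -0.63 that did not pass the test (limma adjusted p = 0.130). Annexin A3, known from mammalian neutrophils, was covered by *anxa3b*, with 5.26, 5.05 and 3.98 on the GFP-positive arrays against 8.31, 8.88 and 9.02 on the GFP-minus arrays. It was 15.7-fold lower (-3.97 on the log2 scale, standard error 0.43, limma adjusted p = 0.0148), and GFP-positive replicate 3 was the lowest of all arrays.

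Annexins with several probe sets did not give a single answer. Annexin A4, which in mammals is typical of epithelia, had a called probe set at 6.82, 7.66 and 7.08 on the GFP-positive arrays against 9.56, 10.14 and 9.57 on the GFP-minus arrays, 5.95-fold lower in GFP-positive cells (-2.57 on the log2 scale, standard error 0.30, limma adjusted p = 0.0174). The other *anxa4* probe set was at 11.80, 12.10 and 11.83 on the GFP-positive arrays against 11.35, 11.19 and 11.76 on the GFP-minus arrays, with a difference of 0.48 in the opposite direction that was not called (limma adjusted p = 0.244). Both probe sets were apart between the groups, where 13.9% of all probe sets lay above and 13.0% below without overlap. The sources used here do not say which probe set follows which transcript. Annexin A5, which binds the phosphatidylserine that dying cells expose, had 4 probe sets for *anxa5b*. The steadiest lay at 5.88, 5.83 and 5.95 on the GFP-positive arrays against 8.50, 8.69 and 8.53 on the GFP-minus arrays. This 6.44-fold lower level (-2.69 on the log2 scale, standard error 0.07, limma adjusted p = 0.00146) had the smallest adjusted p of all members and was called with any 1 of the 6 arrays left out. A further probe set, at 4.11, 4.29 and 4.48 on the GFP-positive arrays against 5.46, 6.36 and 6.09 on the GFP-minus arrays, was 3.20-fold lower (-1.68 on the log2 scale, standard error 0.27, limma adjusted p = 0.0376). The 2 others had a difference of -0.39, uncalled, and no signal above the lowest value.

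Other annexins were not called as deposited. The *anxa11a* transcript, for an annexin that attaches RNA granules to lysosomes in mammals, lay at 5.47, 6.29 and 6.71 on the GFP-positive arrays against 7.97, 8.66 and 9.12 on the GFP-minus arrays, for a difference of -2.43 that just missed the threshold (95% confidence interval -3.66 to -1.20, limma adjusted p = 0.0548). It was called lower in 6 of 13 alternatives and in none that left out an array, and over all alternatives the limma adjusted p ran from 0.000961 to 0.178. Its paralog *anxa11b* was at 9.19, 9.07 and 8.75 on the GFP-positive arrays against 9.52, 9.41 and 9.20 on the GFP-minus arrays, a difference of -0.37. The *anxa13* gene, whose mammalian counterpart is known from intestine, had positive differences of 0.75 and 0.45 in 2 probe sets, neither called. Both were without overlap, as were 13.9% of all probe sets in this direction. The *anxa6* arrays overlapped, with a difference of 0.17, and *anxa13l* stayed under 2.90. The median difference over all annexin probe sets was -0.38.

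Without single arrays, 2 to 8 annexin probe sets were lower. The count was 8 without GFP-minus replicate 1 (4.77% of all probe sets lower) and 2 without GFP-minus replicate 3 (2.57%). It was 3 without any other array (1.38% to 2.88%). The calls of *anxa1b* (limma adjusted p = 0.0730 to 0.1), *anxa3b* (0.0564 to 0.0676), *anxa4* (0.0511 to 0.0844) and the second *anxa5b* probe set (0.0953 to 0.134) were each lost in some cases. They held without GFP-minus replicate 1 or 2 for *anxa1b*, without GFP-minus replicate 1 or GFP-positive replicate 1 or 3 for *anxa3b*, without GFP-minus replicate 1 or GFP-positive replicate 2 for *anxa4*, and without GFP-minus replicate 1 for that *anxa5b* probe set. Leukocyte, erythrocyte and epithelial markers were lower in the same cells, as were some amacrine, horizontal and ganglion cell genes, as given above for whole lists. No gene of the leukocyte, erythrocyte or epithelial list lay at the lowest value on all arrays of a group. The part of all these cell types in the annexin differences was not tested.

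S100 proteins had 2 of 8 probe sets lower (25.0%, against 4.69% of all tested probe sets) and none higher as deposited (limma). By the unadjusted p under 0.05, 3 were lower and 0 higher (10.4% and 10.7% of all probe sets). Median centring gave 2 lower and 1 higher (7.11% and 39.7% of all probe sets). That shift can also call the 1 S100 probe set under 3.5 on every array. Equal hybridization controls gave 5 lower (21.0% of all probe sets). The *s100w* gene had the largest negative difference of all members, with 4.22, 4.08 and 4.08 on the GFP-positive arrays against 8.64, 8.26 and 7.74 on the GFP-minus arrays. The GFP-positive arrays differed by less than 0.15 from one another and the level there was 17.0-fold lower (-4.09 on the log2 scale, standard error 0.25, limma adjusted p = 0.00497), a call that was kept with any 1 of the 6 arrays left out. For *s100u* the GFP-positive levels were low, so the size of its difference depends on the background step. Its values were 3.97, 3.43 and 3.63 on the GFP-positive arrays against 5.24, 5.17 and 5.03 on the GFP-minus arrays, 2.77-fold lower (-1.47 on the log2 scale, standard error 0.16, limma adjusted p = 0.0148). That call was lost without GFP-minus replicate 2 (limma adjusted p = 0.0676) or GFP-positive replicate 3 (0.0756, over all alternatives 0.000125 to 0.0756). The *s100w* gene is the direct neighbour of *s100a10b* in the reference assembly, and the difference of *s100a10b* was -0.63. The epithelial, leukocyte and erythrocyte markers given above moved in the same direction, as did some amacrine, horizontal and ganglion cell genes. The part of these cell types was not tested here either.

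S100B is a glial protein in mammals. Its gene *s100b* was near background in GFP-positive cells, with 2.38, 2.52 and 2.19 on the GFP-positive arrays against 2.32, 3.37 and 4.9 on the GFP-minus arrays. The GFP-minus arrays were spread over a wide range, so that the groups overlapped (log2 difference -1.17, limma adjusted p = 0.453). The *s100v2* and *s100z* genes overlapped as well, with differences of -0.53 and -0.30. The *s100v1* and *s100a1* genes had differences of -0.20 and 0.00, with *s100a1* at 2.19 on every array. The median difference over the S100 probe sets was -0.58.

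Calpains, the calcium-dependent proteases, were not called in any of 9 probe sets as deposited (limma). By the unadjusted p under 0.05, 3 were lower and 0 higher (10.4% and 10.7% of all probe sets). With median centring 2 were higher and 1 was lower (39.7% and 7.11% of all probe sets), a shift that can also call the 3 calpain probe sets under 3.5 on every array. Equal hybridization controls gave 6 lower (21.0%). The GFP-positive arrays lay below the GFP-minus arrays in 6 of the 9 probe sets (66.7%, against 13.0% of all probe sets), although in a *capn2l* probe set 2 arrays of each group lay at 2.99. Calpain 9, in mammals a protease of the digestive tract, had the widest difference of the family, with 3.32, 3.03 and 3.22 on the GFP-positive arrays against 7.41, 5.14 and 4.93 on the GFP-minus arrays for *capn9*. The GFP-positive arrays were near background, so that the size of the difference depends on the background step. It was -2.64 (95% confidence interval -4.64 to -0.63, limma adjusted p = 0.138), GFP-minus replicate 1 stood well above the other arrays of its group, and without it the difference was -1.84 and called (limma adjusted p = 0.0147, over all alternatives 0.000581 to 0.329). The small regulatory subunit gene *capns1a* was at 7.63, 7.74 and 7.89 on the GFP-positive arrays against 8.01, 8.46 and 8.12 on the GFP-minus arrays, a difference of -0.45 (limma adjusted p = 0.183). The *capn2a* and *capn1* genes had differences of -0.70 and -1.48. All GFP-positive arrays of *capn1* lay at 2.73, and GFP-minus replicate 1, at 2.94, was close to them. The 3 *capn2l* probe sets had differences of -1.05, -0.76 and 0.11, and *capn8* and *capn10* stayed at background on every array.

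**Figure D3:**
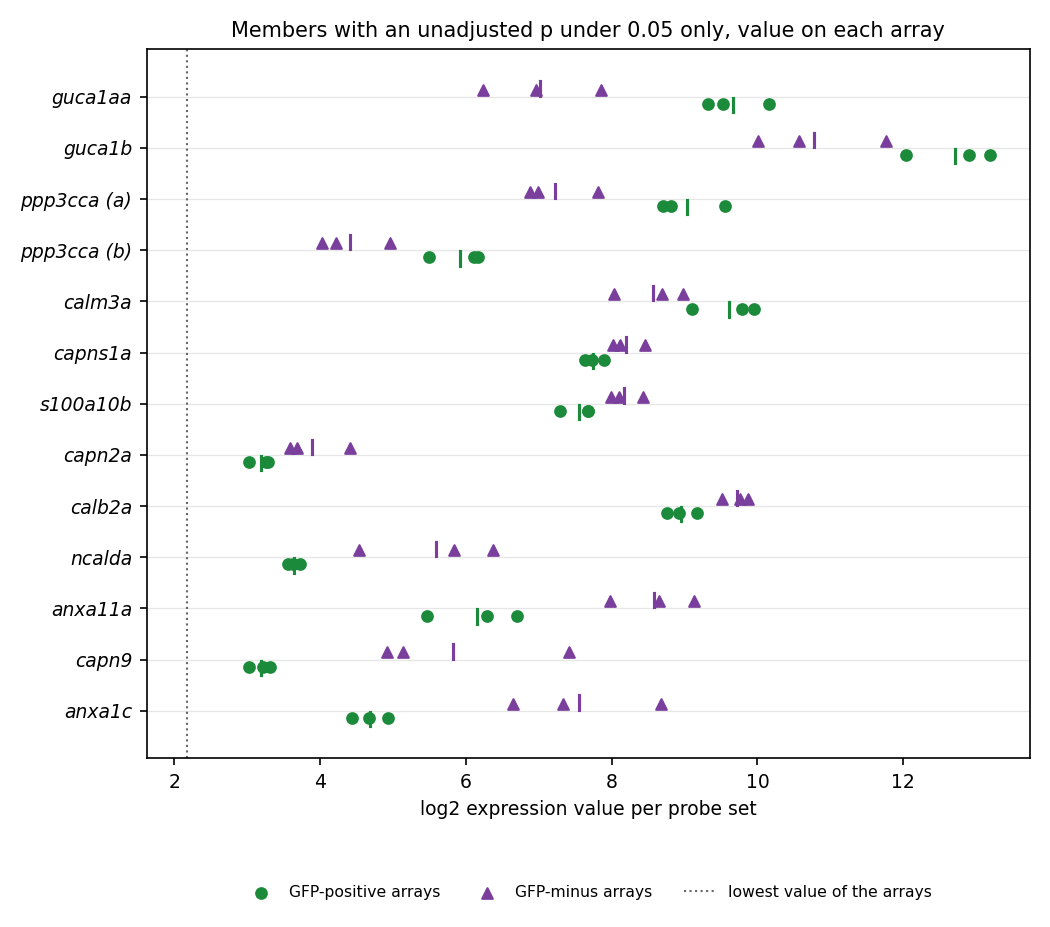
Log2 expression values (x axis) of the 13 member probe sets with an unadjusted p under 0.05 that missed the adjusted threshold (y axis), on the GFP-positive arrays (circles) and GFP-minus arrays (triangles), with short lines at the group means and the lowest value of the arrays dotted. The 5 upper ones, for *guca1aa*, *guca1b*, *ppp3cca* and *calm3a*, lie higher and the 8 lower ones lie lower in GFP-positive cells, without overlap. Their choice by the p from these same arrays largely fixed this separation in advance. Of all probe sets, 13.9% lay above and 13.0% below without overlap.

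Calcium buffers had no call among 12 probe sets as deposited (limma), and their median difference was -0.02. By the unadjusted p under 0.05, 1 was lower and 0 higher (10.4% and 10.7% of all probe sets). With median centring 4 were higher and 1 was lower (39.7% and 7.11% of all probe sets). That shift can also call the 5 buffer probe sets under 3.5 on every array. Equal hybridization controls gave 3 lower (21.0%), and removal of dim probe sets gave 1 lower (11.4% of those tested there). Calretinin, known as a marker of amacrine and ganglion cells in many species, is encoded by *calb2a* and *calb2b*. The *calb2a* values were 9.18, 8.77 and 8.92 on the GFP-positive arrays against 9.87, 9.76 and 9.51 on the GFP-minus arrays, apart between the groups, with a difference of -0.76 near the threshold (95% confidence interval -1.16 to -0.36, limma adjusted p = 0.0605). The *calb2b* values were 10.88, 10.49 and 10.25 on the GFP-positive arrays against 10.59, 10.67 and 11.00 on the GFP-minus arrays and overlapped, with a difference of -0.22 (95% confidence interval -0.77 to 0.34). It was 0.01 with median centring, still below the median of all probe sets at 0.24, and -0.95 with equal hybridization controls, where it was called lower (limma adjusted p = 0.0483, over all alternatives 0.0483 to 0.979). The *calb1* gene, for calbindin, a buffer of many neurons, had 5.55, 4.48 and 4.29 on the GFP-positive arrays against 5.74, 4.48 and 4.43 on the GFP-minus arrays, so that both groups had their highest array in replicate 1.

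Parvalbumins, buffers of fast muscle and of some neurons, were measured with 9 genes. The probe sets for *pvalb2*, *pvalb3* and *pvalb4* were at the lowest value, and *pvalb1* and *pvalb7* stayed under 2.40. The *pvalb5* gene lay at 3.86, 4.31 and 3.89 on the GFP-positive arrays against 3.89, 6.63 and 6.77 on the GFP-minus arrays. GFP-minus replicates 2 and 3 were high and replicate 1 matched the GFP-positive arrays, and the difference of -1.74 was not called (limma adjusted p = 0.366). The *pvalb6*, *pvalb8* and *pvalb9* differences were 0.13, 0.24 and 0.59, all with overlap.

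CaBP5, a calmodulin-like protein of retinal bipolar cells in mammals, was covered by *cabp5b*, with 10.96, 11.26 and 10.59 on the GFP-positive arrays against 10.78, 11.21 and 11.92 on the GFP-minus arrays. The groups overlapped and the difference was -0.37 (95% confidence interval -1.33 to 0.59, limma adjusted p = 0.613). The EFHD genes code for EF-hand proteins of mitochondria (*efhd1*) and of the actin cytoskeleton (*efhd2*). The *efhd2* transcript lay at 10.22, 10.51 and 10.33 on the GFP-positive arrays against 10.38, 10.67 and 10.35 on the GFP-minus arrays, a difference of -0.11 (95% confidence interval -0.45 to 0.22) that became 0.11 with median centring, where the median of all probe sets was 0.24. The *efhd1* transcript had a difference of 0.52, also with overlap.

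**Figure D4:**
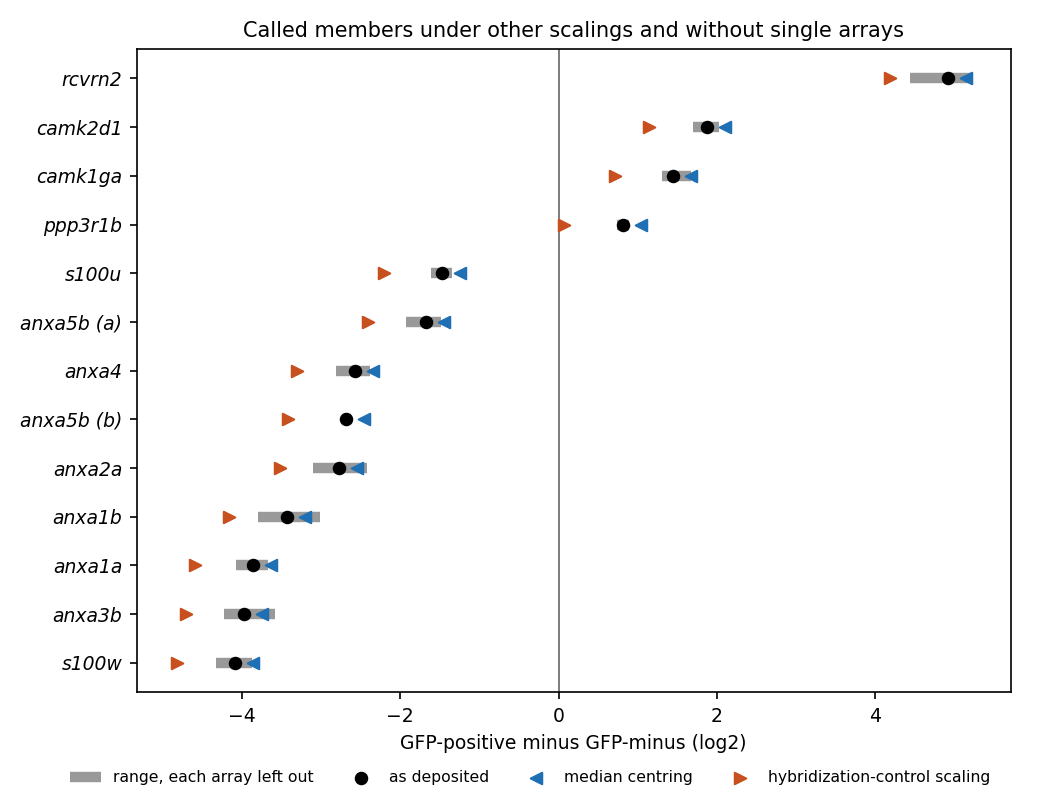
Log2 difference (x axis) of the 13 called probe sets (y axis) as deposited (circles), with each array centred on its median (blue triangles), with equal hybridization controls (orange triangles), and its range when each array was left out in turn (grey bars). All values keep their sign, which the non-overlapping groups and the size of the shifts fixed in advance. The nearest to 0 is *ppp3r1b*, at 0.07 with equal hybridization controls.

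Genes that move calcium or respond to these sensors were taken as a wider set, with 1 probe set per gene. Of 55 measured genes, 1 was higher and 1 was lower (1.82% each, against 2.99% and 4.69% of all probe sets). By the unadjusted p under 0.05, 8 were higher and 8 lower (10.7% and 10.4% of all probe sets). No gene of 8 calcium pumps, 2 sodium-calcium exchangers and 9 calcium channel, store-operated entry and mitochondrial uniporter genes was called (limma; 1 higher and 2 lower unadjusted, p under 0.05, all of them among those 9). The plasma membrane pump gene *atp2b1a*, for example, lay at 12.11, 10.33 and 10.31 on the GFP-positive arrays against 12.28, 11.57 and 11.33 on the GFP-minus arrays, with overlap. Of 21 store and other calcium-binding genes 1 was lower (4.76%, against 4.69% of all probe sets). This was the calreticulin gene *calr3a*, for a chaperone of the endoplasmic reticulum, at 9.51, 9.72 and 9.96 on the GFP-positive arrays against 10.42, 10.53 and 10.57 on the GFP-minus arrays (log2 difference -0.78, limma adjusted p = 0.0403).

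Of 15 measured targets of the sensors, 5 were higher and 2 lower by the unadjusted p under 0.05 (10.7% and 10.4% of all probe sets). After adjustment 0 were lower and 1 was higher (limma, 6.67%, against 2.99% of all probe sets). This was *gc2*, a guanylate cyclase gene, at 5.92, 6.73 and 6.44 on the GFP-positive arrays against 3.65, 3.34 and 4.31 on the GFP-minus arrays (log2 difference 2.60, limma adjusted p = 0.0243). The retinal cyclase genes *gucy2f* and *gucy2d* had differences of 1.90 and 1.62 that were not called (limma adjusted p = 0.201 and 0.229). The calcineurin regulator gene *rcan1b* lay at 10.71, 11.10 and 11.39 on the GFP-positive arrays against 8.84, 9.67 and 9.96 on the GFP-minus arrays. Its groups were apart, with a difference of 1.58 that missed the threshold (limma adjusted p = 0.0878). Calpastatin, the inhibitor of calpains, had 5.57, 4.72 and 4.08 on the GFP-positive arrays against 9.01, 7.28 and 6.93 on the GFP-minus arrays for *cast*, a difference of -2.95 that was not called (limma adjusted p = 0.101).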

How the data were processed

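Expression was measured in retinal cells of adult Tg(3.2TalphaCP:EGFP) zebrafish, 3 GFP-positive and 3 GFP-minus samples grouped by their labels, each on 1 Affymetrix GeneChip Zebrafish array after labelling in 2 amplification cycles. The authors deposited log2 values per probe set. They had been made with GCRMA according to the submitters' processing notes, in a version and with settings that the sources used here do not give. This method subtracts a background estimated from probe sequence, brings arrays to one distribution and combines the probes, so dim probe sets collect at a lowest value and their differences depend on that step.

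The arrays hold 15617 probe sets. After removal of 115 Affymetrix control sets, 15502 were tested with limma 3.58.1 in R 4.3.3 (lmFit and eBayes, two-sided, Benjamini-Hochberg adjustment over all of them, threshold 0.05). The prior on the variances had 0.519 degrees of freedom, and the spread of each probe set weighed most. The procedure was checked on simulated data. Arrays have no read depth, and 3 per group limit the precision.

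Names came from the platform annotation, where 10795 probe sets had 1 symbol, 135 had several and 4572 had none. Gene identifiers of 75 of the 77 member probe sets were in the RefSeq table of assembly GRCz12tu, which served for names and neighbours, and those of 2 *capn2l* probe sets were not. Values on each array were given for called members, for uncalled ones with a difference of at least 2 on the log2 scale and, in families without either, for the probe set with the highest mean, and further members were chosen after their values were seen. The lists of markers and of wider calcium genes used the probe set with the highest mean per gene. Members, families and lists were chosen with earlier results of these data known. Alternatives were a block for the replicate number, removal of dim probe sets (those with a mean at or below the median mean), quantile normalization, median centring, equal hybridization controls, a trend with a robust prior, 1 probe set per gene, and each array left out in turn. Figures were drawn with matplotlib 3.10.9. Sequences of the members were not used here.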

Additional observations from a re-analysis of the deposited data

How the results depend on the processing

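The counts depended on the scale, the filter, the block and single arrays. Over all probe sets, 463 higher became 194 with the replicate number as a block, 775 with a filter on dim probe sets, 6151 with median centring and 195 with equal hybridization controls, and 727 lower became 256 with the block, 1102 with median centring and 3251 with equal hybridization controls. Members called higher (4) became 7 of 41 tested with the filter, which called 10.0% of 7751 probe sets higher and 11.4% lower, and 26 with median centring, and those called lower (9) became 14 with median centring and 27 with equal hybridization controls. With the replicate number as a block, 4 members were higher and 6 lower (1.25% and 1.65% of all probe sets). The calmodulins then had 2 higher (*calm3b* with limma adjusted p = 0.0359), the CaM kinases 0 higher and the S100 proteins 1 lower. Of the 4 members called higher as deposited, *rcvrn2* kept its call with the block (limma adjusted p = 0.0471). The calls of *camk1ga* (0.110), *camk2d1* (0.0683) and *ppp3r1b* (0.0775) were lost. The 1 calcineurin probe set then higher was therefore not the *ppp3r1b* one called as deposited. The labels do not say that the numbers pair the samples. Deviations of same-numbered samples from their group means correlated at 0.55, 0.06 and 0.27 for numbers 1, 2 and 3 over all probe sets, and not every sample correlated best with its own number.

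By family, the filter gave 1 recoverin family, 1 CaM kinase, 3 calcineurin and 2 guanylate cyclase activator probe sets higher. It gave 8 annexin, 1 S100 and 1 buffer probe set lower. Quantile normalization gave 1 recoverin family, 2 CaM kinase, 2 calcineurin and 1 guanylate cyclase activator probe set higher (4.38% of all probe sets). It gave 8 annexin and 2 S100 probe sets lower (4.92%). The setting of 1 probe set per gene also gave 1 guanylate cyclase activator higher (3.59% of all probe sets tested there). Median centring gave 1 S100, 5 annexin, 4 calcineurin, 1 calmodulin, 2 CaM kinase, 2 calpain, 2 guanylate cyclase activator, 4 buffer and 5 recoverin family probe sets higher. It gave 9 annexin, 2 S100, 1 calpain, 1 buffer and 1 recoverin family probe set lower. Its higher calls can include probe sets at background. Equal hybridization controls gave 1 recoverin family, 1 CaM kinase, 0 calcineurin and 1 guanylate cyclase activator probe set higher. They gave 5 S100, 11 annexin, 6 calpain, 3 buffer and 2 recoverin family probe sets lower.

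Without single arrays the counts ran from 103 to 323 higher and 214 to 740 lower over all probe sets and from 0 to 3 higher and 4 to 15 lower over the members. By family they ran from 0 to 2 CaM kinases, 0 to 1 calcineurin and 0 to 1 recoverin family probe sets higher, and from 1 to 2 S100, 2 to 8 annexin, 0 to 2 calpain, 0 to 1 buffer and 0 to 2 recoverin family probe sets lower. The calls of the 13 members held in 116 of 164 fits and were lost in 48. Their direction did not change, which was largely fixed in advance, as given above. Of 8 uncalled members chosen by the same rule, 6 were called in at least 1 alternative and 3 turned direction, *calm3b* to -0.17 with equal hybridization controls, and *calb2b* to 0.0076 and *efhd2* to 0.11 with median centring. These scalings move every difference alike, so small differences change sign by construction, and relative to the median of all probe sets (-0.73 and 0.24) *calm3b* stayed above and the other two below. The trend and robust prior moved none of these counts by over 1.5 times. Causes of these changes were not tested.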
